A study of Homo sapiens with 4 samples.

Results

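DEAD-box and DEAH-box proteins are RNA helicases that use ATP to open short RNA duplexes or to strip proteins from RNA, and they are named after the letters of a conserved motif in the core that binds and splits ATP. Members were taken by symbol, as the protein-coding genes whose name starts with DDX or DHX followed by a digit. The nucleolar helicase DDX21, its paralog DDX50 and the antiviral genes DDX58, DDX60, DDX60L and DHX58 were left out. This gave 49 genes, 34 named DDX and 15 named DHX, of 46427 genes in the deposited table, 19672 of them protein-coding. The name does not always follow the protein: DDX11 is a DNA helicase of another branch of the superfamily.

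The cells were NCI-H1299, written H1299, a human line of non-small cell lung cancer, and its derivative DDX21 KO, in which DDX21 was knocked out. Each line was sequenced non-treated and after lipofection of a miR-34a mimic, with an RNA concentration of 25 nM and a harvest after 48 h. The sources used here do not say whether the knockout line is a single clone, which part of DDX21 was edited, or whether the non-treated cells received a control RNA, so a comparison of miR-34a with non-treated cells includes the transfection. There were 4 libraries, 1 per group, and every difference below lies between libraries, with no replicate check and no p-value.

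Within the spliceosome, helicases drive the remodelling steps between the binding of the branch site and the release of the spliced mRNA. In the nucleolus they place small nucleolar RNAs on precursor ribosomal RNA and remove them again, and in the cytoplasm they prepare mRNA for scanning, store it in granules or pass it to decay. miR-34a itself represses many genes of cell cycle progression. Most helicases are used by every dividing cell, and proliferating tumour cells make large amounts of ribosomes. DDX6 also takes part in silencing by microRNAs, where it binds the CCR4-NOT complex that shortens poly(A) tails.

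Libraries held between 26868358 and 36263145 estimated counts. Levels of 1 gene between libraries are given as CPM, estimated counts per library after TMM scaling, and always in the order non-treated H1299, miR-34a H1299, non-treated DDX21 KO and miR-34a DDX21 KO. Levels between genes are given as FPKM, which also divides by length. Ratios are log2 ratios of counts, given for miR-34a in H1299 first and in DDX21 KO second, or for the lines in non-treated cells first and with the mimic second, and brackets hold their 95% counting interval, which covers counting error only. DDX21 itself stood at 722, 588, 206 and 182 CPM. KRT8 and KRT18, keratins of epithelial cells, were present in every library and were higher in non-treated DDX21 KO than in non-treated H1299, with ratios of 1.15 (1.10 to 1.19) and 1.07 (1.05 to 1.10). The summed FPKM of endothelial, fibroblast and leukocyte marker lists stayed at or below 0.931 in each library, and the 4 erythroid markers were at 0.

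The mature miR-34a-5p of RefSeq (GRCh38.p14, chr1:9151735-9151756, minus strand) is shown with its seed, bases 2 to 8, in capitals, because the mimic acts through that seed. The sites below it are those found in the longest annotated 3′ UTR of all 8 measured helicases with a match, which the later comparison with the ratios turns on, as read from GENCODE 29 on GRCh38. Capitals there mark the letters of the match: CACTGCC for bases 2 to 8, ACTGCCA for bases 2 to 7 followed by A, and CACTGCCA where these motifs overlap. The A at the end of ACTGCCA and CACTGCCA lies outside the seed.
miR-34a-5p: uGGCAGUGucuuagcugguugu
DDX11, chr12:31103837-31103866, plus strand: tgggcaaccacacCACTGCCtggcgccgtg
DDX17, chr22:38485749-38485778, minus strand: agattagttagaattCACTGCCAggtttct
DDX24, chr14:94050372-94050401, minus strand: ttctccatcctggagCACTGCCAtgggtcc
DDX24, chr14:94048698-94048727, minus strand: gggaagccaccgagtCACTGCCAaggtgac
DDX19A, chr16:70372004-70372033, plus strand: tgatgccagccctggCACTGCCcctgcaca
DDX19B, chr16:70333600-70333629, plus strand: tgatgccagccctggCACTGCCcctgcaca
DDX19B, chr16:70335084-70335113, plus strand: caaagagaccaacagACTGCCAattctacc
DDX41, chr5:177511733-177511762, minus strand: gcctcagtccccaagACTGCCAccagtcta
DDX3X, chrX:41351218-41351247, plus strand: atctgctctggaggaACTGCCAaaatttga
DDX59, chr1:200623941-200623970, minus strand: gagccatggtcatgaCACTGCCctccagcc

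Helicase mRNA was abundant in all 4 libraries. Of the 49 members, 45 had at least 50 reads in each library, and together the members took between 0.614% and 0.661% of all counts. Their median FPKM, over these 45, was 22.8, 18.6, 19.4 and 16.5, against 8.51, 8.58, 8.53 and 8.31 for the protein-coding genes with 50 reads. The 6 highest in non-treated H1299 were DDX5 at 175 FPKM, DDX39B at 129, DHX15 at 113, DDX3X at 108, DDX39A at 102 and DHX9 at 99.7. They serve splicing (DDX5, DHX15), mRNA export (DDX39A, DDX39B), translation initiation (DDX3X) and the resolution of RNA-DNA hybrids and other structures (DHX9). At the other end, DDX43, a gene otherwise active in testis and in tumours, had 3.44, 2.95, 3.50 and 3.98 FPKM, the lowest of the 45 in both H1299 libraries, followed there by the NMD factor DHX34 at 3.92 and 3.36. In DDX21 KO the lowest were DDX51 at 3.31 FPKM in non-treated cells and DDX28 at 3.50 with miR-34a. DDX25, a helicase of male germ cells, had only 46, 16, 32 and 25 counts. Another 3 members were listed at 0 in all 4 libraries, among them the germ-line genes DDX4 and DDX53; a count of 0 allows up to 0.0840 to 0.111 CPM, depending on the library.

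**Figure D1:**
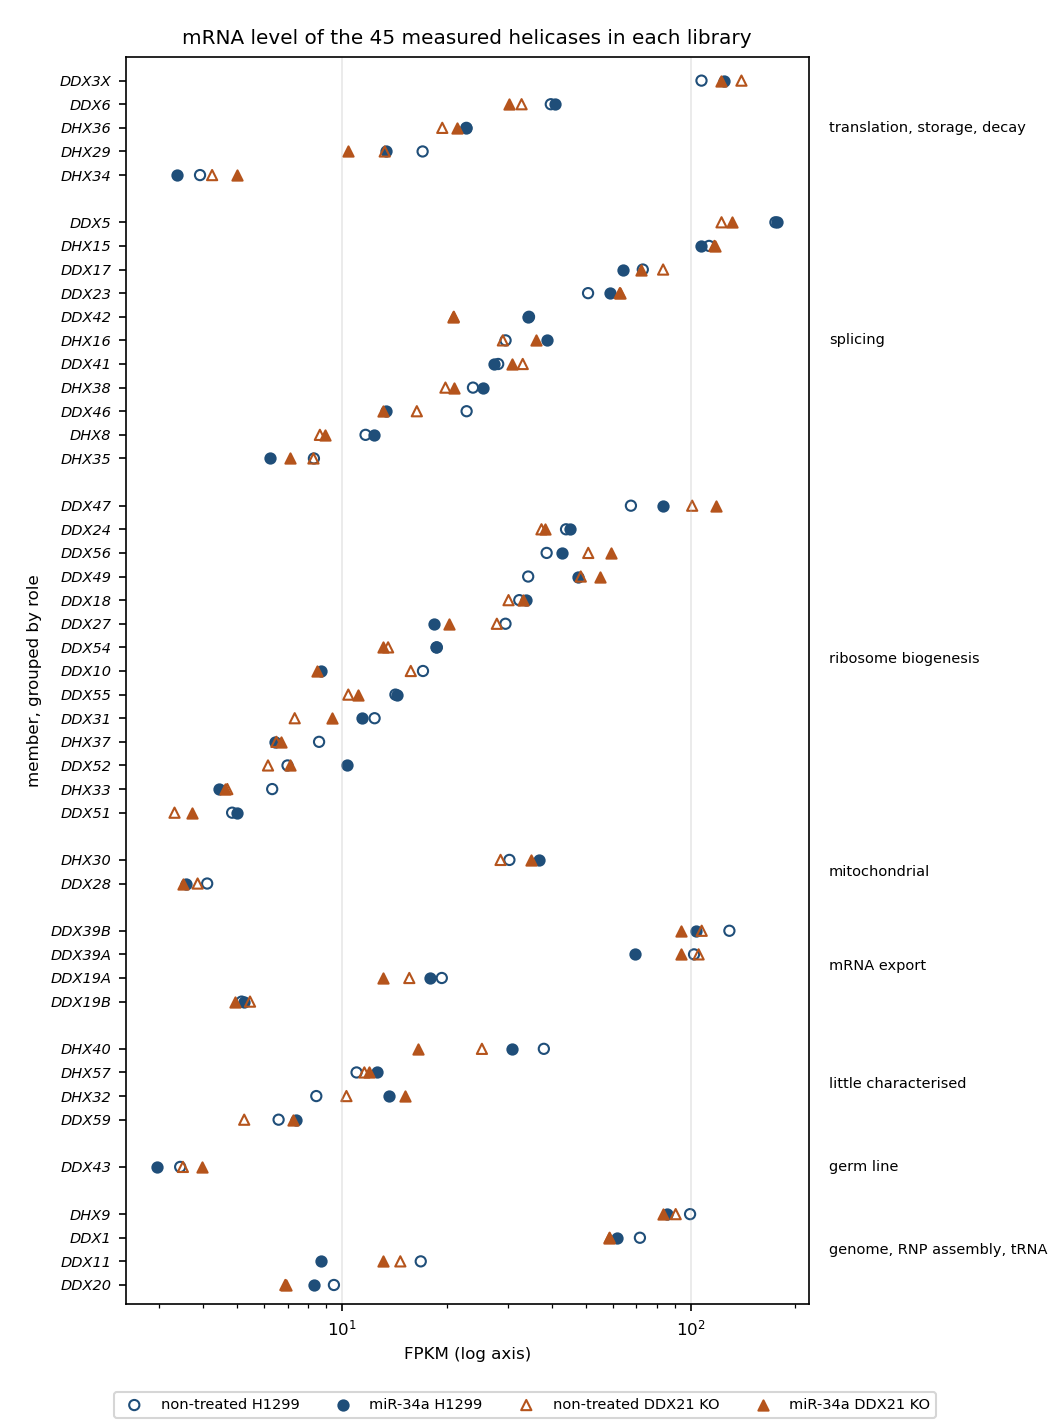
FPKM of the 45 helicases with at least 50 reads in every library, on a log axis, grouped by role. Circles are H1299 and triangles DDX21 KO, open for non-treated and filled for miR-34a, 1 library each. The levels span from 2.95 FPKM (DDX43) to 178 FPKM (DDX5), while the 4 symbols of a gene mostly lie close together.

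The first pair of comparisons asks how the helicases responded to miR-34a in each line. No member differed by 2-fold in either line: 0 of 45 were higher and 0 lower. Among protein-coding genes 3.62% were higher and 3.89% lower by that rule in H1299, and 1.53% and 1.61% in DDX21 KO. At 1.5-fold, 2 members were higher in H1299 (background 10.7%) and 4 lower (11.9%), and in DDX21 KO 0 were higher (5.87%) and 2 lower (6.54%). The median ratio of the members was -0.02 in H1299 and -0.01 in DDX21 KO, against 0.02 and 0.00 for protein-coding genes. Their spread was also narrower, with an SD across genes of 0.36 and 0.27 against 0.59 and 0.44. Counting error widens the spread of genes with few reads, and the protein-coding genes were not matched to the members for level. The counting interval lay above 0 for 17 members in H1299 (37.8%, background 39.3%) and below 0 for 18 (40.0%, background 36.0%), and in DDX21 KO for 13 (28.9%, background 31.6%) and 14 (31.1%, background 31.5%).

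The ratios of single members resembled each other in both lines, which share no library. Across the 45 genes Pearson's r was 0.74 and Spearman's rho 0.72, as a description over genes, which are not independent replicates. Over 11485 protein-coding genes the values were 0.69 and 0.72, so the helicases did not stand out in this. The counting interval lay below 0 in both lines for 12 members (26.7%, background 24.4%) and above 0 in both for 11 (24.4%, background 24.8%), and it changed sides for 2, DDX6 and DHX34 (4.44%, background 3.95%). Both miR-34a libraries were below both non-treated ones for 11 members (background 22.0%) and above them for 8 (background 22.3%).

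**Figure D2:**
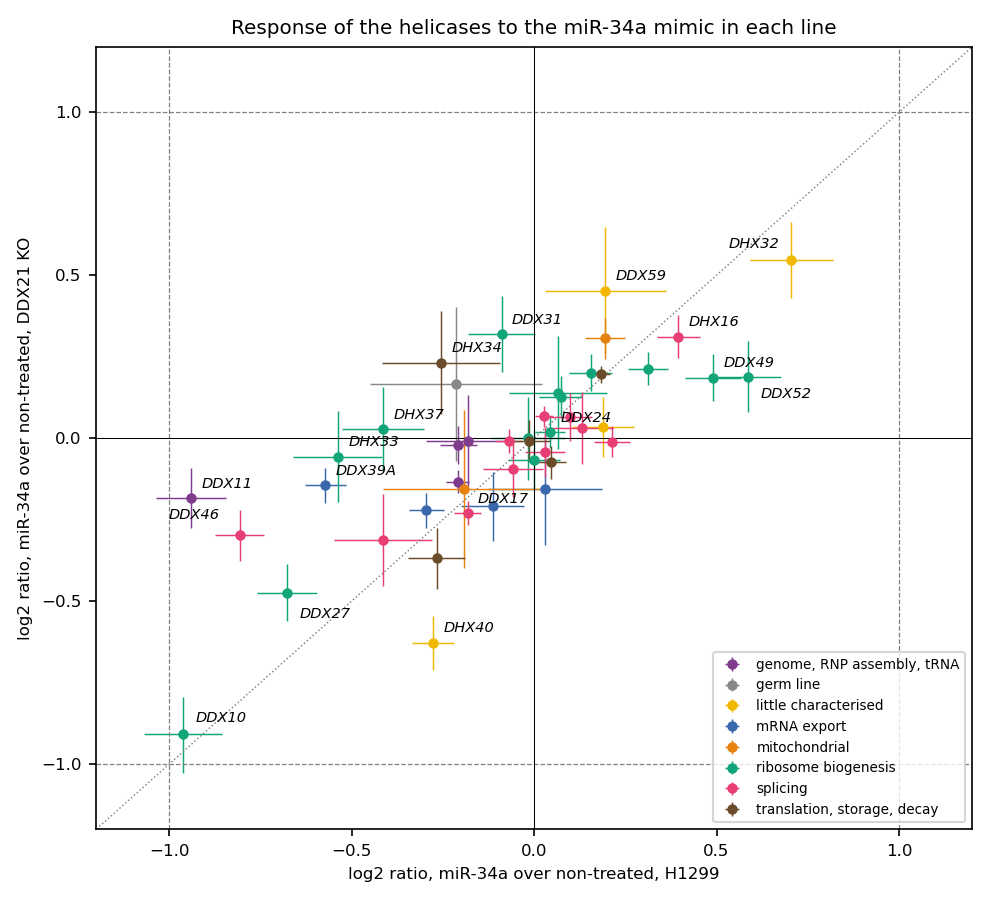
Log2 ratio of miR-34a over non-treated in H1299 (x axis) and in DDX21 KO (y axis) for 45 helicases, coloured by role; bars are 95% counting intervals, dashed lines mark 2-fold and the dotted line equal ratios. DDX10 lies lowest on both axes and DHX32 highest on both, while DDX11 and DDX46 are low in H1299 and nearer to 0 in DDX21 KO.

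Among the 14 helicases of ribosome biogenesis, 6 had an interval above 0 and 4 below it with miR-34a in H1299 (background 39.3% and 36.0%), and 6 and 2 in DDX21 KO (background 31.6% and 31.5%). DDX10, whose yeast counterpart releases a small nucleolar RNA from the precursor, was the lowest of all 45 members in both lines. This gene (ID 1662, chromosome 11, 108665069 to 108940927) stood at 62.3, 32.0, 57.4 and 30.5 CPM. Its ratio was -0.96 (-1.07 to -0.86) and -0.91 (-1.03 to -0.79), a 1.95-fold and a 1.88-fold lower level. The transfected libraries of DDX10 lay together and far below the non-treated ones, whichever the line. DDX27, which acts in the large subunit pathway, stood at 90.6, 56.7, 85.1 and 61.3 CPM, with ratios of -0.68 (-0.76 to -0.59) and -0.47 (-0.56 to -0.39). Here too both transfected libraries were below both non-treated ones.

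Other ribosome biogenesis genes were higher with the mimic. DDX52, the counterpart of yeast Rok1, stood at 50.6, 76.0, 44.5 and 50.7 CPM, with ratios of 0.59 (0.50 to 0.68) and 0.19 (0.08 to 0.30). DDX49, the counterpart of yeast Dbp8, stood at 69.7, 97.9, 98.4 and 112 CPM, with ratios of 0.49 (0.41 to 0.57) and 0.19 (0.11 to 0.26). DDX47, needed for the small subunit, stood at 139, 172, 208 and 241 CPM. For DDX47 the ratios were 0.31 (0.26 to 0.37) and 0.21 (0.16 to 0.26). For DDX49 and DDX47 the difference between the lines was larger than or close to that with the mimic, and the transfected and non-treated groups overlapped. DHX33, a helicase of ribosomal DNA transcription, stood at 38.9, 26.8, 29.3 and 28.2 CPM, and DHX37, which releases the U3 small nucleolar RNA, at 44.4, 33.3, 33.4 and 34.1. In both of these genes 1 library, non-treated H1299, was high and the other 3 lay close together. DDX47 shares the strand and part of its span with APOLD1, and DHX33 with C1QBP, so reads could have been split between them.

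Splicing helicases went both ways: of 11, 5 intervals were above 0 and 4 below in H1299 (background 39.3% and 36.0%), and 2 and 4 in DDX21 KO (background 31.6% and 31.5%). DDX46, which recruits the U2 particle to the branch site, stood at 142, 81.0, 101 and 81.9 CPM. Its ratio was -0.81 (-0.88 to -0.74) and -0.30 (-0.38 to -0.22); the transfected libraries were alike and the non-treated ones were not. DDX46 overlaps C5orf24 on the same strand. DHX35, a component of catalytic spliceosomes, stood at 31.2, 23.4, 31.1 and 25.0 CPM, with ratios of -0.41 (-0.55 to -0.28) and -0.31 (-0.45 to -0.17). DHX16, which activates the spliceosome before the first reaction, was the highest of the splicing members in both lines. DHX16 stood at 117, 153, 112 and 139 CPM, with ratios of 0.39 (0.34 to 0.45) and 0.31 (0.24 to 0.38), and both transfected libraries exceeded both non-treated ones.

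The abundant splicing factors moved little with the mimic. DDX5, a cofactor of splicing and of microRNA processing, stood at 736, 750, 518 and 543 CPM, with ratios of 0.03 (0.00 to 0.05) and 0.07 (0.04 to 0.10). Its paralog DDX17 stood at 394, 347, 450 and 383 CPM, with ratios of -0.18 (-0.22 to -0.15) and -0.23 (-0.27 to -0.19). DHX15, which takes spent spliceosomes apart, stood at 384, 366, 397 and 394 CPM. DDX5 thus separated by line and DDX17 by transfection, while the 4 values of DHX15 were close. DDX23, which swaps U1 for U6 at the start of the intron, stood at 188, 217, 231 and 229 CPM, with the lowest level in non-treated H1299.

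All 4 measured export helicases had low or flat ratios. DDX39A stood at 183, 123, 191 and 172 CPM, with ratios of -0.57 (-0.63 to -0.52) and -0.15 (-0.20 to -0.09). Its paralog DDX39B, part of the TREX complex that couples splicing to export, stood at 233, 190, 198 and 170 CPM, with ratios of -0.30 (-0.34 to -0.25) and -0.22 (-0.28 to -0.17). For both paralogs the transfected libraries lay below the non-treated ones. DDX19A, which releases mRNA at the nuclear pore, stood at 67.3, 62.2, 52.9 and 45.8 CPM and its adjacent copy DDX19B at 19.2, 19.6, 20.3 and 18.2. Reads of DDX19A and DDX19B, and of DDX39B and its read-through transcript with ATP6V1G2, could have been split by the counting; that read-through held 230, 190, 134 and 101 counts.

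Of the 5 helicases of translation, storage and decay, 2 had an interval above 0 and 2 below it in each line (background 39.3% and 36.0% in H1299, 31.6% and 31.5% in DDX21 KO). DDX3X, which opens structured leaders during initiation, stood at 787, 894, 751 and 860 CPM, with ratios of 0.18 (0.16 to 0.21) and 0.20 (0.17 to 0.22). On the deposited FPKM the ratio of DDX3X in DDX21 KO had the other sign, -0.19. DDX6 stood at 269, 278, 213 and 202 CPM, with ratios of 0.05 (0.00 to 0.09) and -0.07 (-0.13 to -0.02), so the level separated by line and not by mimic. DHX29, which helps the small subunit scan, stood at 85.6, 71.2, 70.2 and 54.3 CPM, with ratios of -0.27 (-0.35 to -0.19) and -0.37 (-0.46 to -0.27). DHX36, which unwinds G-quadruplexes, stood at 141, 140, 131 and 130 CPM, the flattest profile of this role with regard to the mimic. DHX34, a factor of nonsense-mediated decay, stood at 20.2, 17.0, 21.0 and 24.7 CPM, with ratios of -0.25 (-0.42 to -0.09) and 0.23 (0.08 to 0.39), on opposite sides of 0.

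In the remaining roles, all 4 helicases of genome maintenance, RNP assembly and tRNA ligation had intervals below 0 in H1299 (background 36.0%) and 2 of 4 in DDX21 KO (background 31.5%). DDX11, needed for sister chromatid cohesion, stood at 77.4, 40.3, 67.5 and 59.4 CPM. Its ratio was -0.94 (-1.04 to -0.85) in H1299, a 1.92-fold lower level, and -0.18 (-0.28 to -0.09) in DDX21 KO, with the transfected H1299 library far below the other 3. DDX11 is nearly identical to the pseudogene DDX12P, so reads could have moved between them. DDX12P held 846, 347, 502 and 355 counts, with the lowest values in the transfected libraries. DHX9 stood at 509, 440, 462 and 421 CPM, and DDX1, a subunit of the tRNA ligase complex, at 202, 174, 165 and 162. DDX20, or Gemin3, of the SMN complex stood at 38.7, 34.2, 28.1 and 27.9 CPM.

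The highest ratio of all belonged to a helicase of little known function. DHX32 (ID 55760, chromosome 10, 125836337 to 125896485) stood at 29.2, 47.6, 35.6 and 51.9 CPM, with ratios of 0.70 (0.59 to 0.82) and 0.54 (0.43 to 0.66). DDX59, mutated in a ciliopathy, stood at 16.5, 18.9, 13.3 and 18.2 CPM, with ratios of 0.19 (0.03 to 0.36) and 0.45 (0.26 to 0.65). For both genes the transfected libraries exceeded the non-treated ones. DHX40 stood at 152, 125, 99.3 and 64.3 CPM, with ratios of -0.28 (-0.34 to -0.22) and -0.63 (-0.71 to -0.55), so that each condition had its own level. The pseudogene DHX40P1 held 289, 218, 126 and 111 counts. Of the mitochondrial ribosome helicases, DHX30 was at 144, 165, 125 and 155 CPM, higher in the transfected library of each line, and DDX28 at 10.8, 9.46, 10.1 and 9.09.

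In H1299 the helicases with a seed match had nearly the same median ratio as those without one. A match was found in the 3′ UTR of 8 of 45 members (17.8%), against 23.5% of protein-coding genes in H1299: DDX3X, DDX11, DDX17, DDX19A, DDX19B, DDX24, DDX41 and DDX59. In H1299 the median ratio of members with a match was -0.01 and that of members without was -0.02, and in DDX21 KO the medians were -0.13 and -0.01. Over protein-coding genes the genes with a match lay lower than the others by a difference of -0.15 in H1299 and -0.10 in DDX21 KO. DDX24, whose UTR holds 2 of the 3 8-base matches printed above, stood at 278, 286, 236 and 239 CPM, with ratios of 0.04 (0.00 to 0.08) and 0.02 (-0.03 to 0.07). DDX17, the other member with an 8-base match, had the slightly low ratios given above, while DDX3X and DDX59, each with a 7-base match, were higher in both lines. The match of DDX59 is on a GENCODE transcript and lies outside the RefSeq span of that gene, 200640805 to 200669907 on chromosome 1. Whether the DDX59 mRNA of these cells holds that match was not tested. DDX11, with a 7-base match, was low mainly in H1299. DDX10, the lowest member, had no match in a 3′ UTR of 4167 bases and 1 in its coding sequence. A match in the coding sequence was found for 13 of 45 members (28.9%) and for 24.4% of protein-coding genes in H1299. The first match of DDX19A and of DDX19B lies in the same 30 letters. The longest 3′ UTR is not always that of the main transcript, and a match is only a run of letters.

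The second pair of comparisons asks how the knockout line differed from H1299. Again 0 of 45 members were higher and 0 lower by 2-fold, where 3.83% and 2.28% of protein-coding genes were in non-treated cells and 3.93% and 2.78% with miR-34a. At 1.5-fold, 0 were higher (background 9.07%) and 3 lower (8.87%) in non-treated cells, and 0 (9.46%) and 2 (9.37%) with miR-34a. Small differences were mostly in 1 direction. The interval lay below 0 for 29 of 45 members in non-treated cells, 64.4% against a background of 36.8%, and for 22 of 45 with miR-34a, 48.9% against 37.1%, and above 0 for 9 (background 35.2%) and 13 (background 35.5%). It was below 0 in both for 21 members (46.7%, background 26.1%) and above 0 in both for 9 (background 24.4%), and it changed sides for 2, DDX11 and DDX27 (4.44%, background 6.20%). The median ratio was -0.19 and -0.07, against -0.01 and -0.01 for protein-coding genes. Both DDX21 KO libraries were below both H1299 libraries for 16 members (background 25.1%) and above for 8 (background 22.8%). An interval leaves out 0 more easily with more reads, and the background was not matched to the members for level. In non-treated cells the interval held 0 for 7 of 45 members and for 3300 of 11813 protein-coding genes.

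Ribosome biogenesis helicases, which share the nucleolus with DDX21, held both ends of this range in non-treated cells. In non-treated cells 11 of 14 had an interval below 0 and 3 above (background 36.8% and 35.2%), and with miR-34a 6 were below and 4 above (background 37.1% and 35.5%). DDX31, a nucleolar helicase of the large subunit pathway (ID 64794, chromosome 9, 132592997 to 132669983), stood at 58.8, 55.3, 36.4 and 45.4 CPM. In DDX21 KO it was 1.62-fold lower without the mimic, a ratio of -0.69 (-0.80 to -0.58), and with miR-34a the ratio was -0.28 (-0.38 to -0.19). DDX51, which acts at the 3′ end of the precursor, stood at 25.7, 26.9, 17.6 and 19.4 CPM, with ratios of -0.54 (-0.70 to -0.38) and -0.47 (-0.62 to -0.32). DDX54 stood at 93.0, 92.9, 67.2 and 64.2 CPM, and DDX55 at 46.5, 45.9, 34.3 and 34.3; both have yeast counterparts in large subunit assembly. In DDX51, DDX54 and DDX55 the H1299 libraries were equal within counting error, as were those of DDX21 KO, and the lines did not overlap.

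DDX47 was the highest member in non-treated cells, with a ratio of 0.58 (0.53 to 0.64) and one of 0.48 (0.43 to 0.53) with miR-34a. DDX49 had ratios of 0.50 (0.42 to 0.58) and 0.19 (0.12 to 0.26). DDX56, a nucleolar helicase of the large subunit, stood at 126, 140, 165 and 190 CPM, with ratios of 0.39 (0.33 to 0.45) and 0.44 (0.38 to 0.49). In these genes both DDX21 KO libraries were above both H1299 libraries. For DDX49 the lines nearly met, at 98.4 CPM in non-treated DDX21 KO and 97.9 CPM in miR-34a H1299. DDX18, with 6 pseudogenes in the table, was nearly level at 137, 144, 128 and 139 CPM.

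Of the 11 splicing helicases, 5 were below 0 and 4 above in either comparison of the lines (background 36.8% and 35.2% in non-treated cells, 37.1% and 35.5% with miR-34a). DDX42, an SF3B-associated helicase (ID 11325, chromosome 17, 63773800 to 63819317), stood at 152, 155, 95.7 and 92.8 CPM. It was 1.59-fold lower in non-treated cells, a ratio of -0.67 (-0.74 to -0.60), and 1.67-fold lower with miR-34a, a ratio of -0.74 (-0.81 to -0.68). DDX5, the most abundant member, had ratios of -0.51 (-0.54 to -0.48) and -0.47 (-0.49 to -0.44). DHX8, which releases spliced mRNA, stood at 61.4, 67.2, 45.8 and 46.8 CPM, with ratios of -0.42 (-0.52 to -0.32) and -0.52 (-0.62 to -0.43). In all 3 genes the lines were far apart and the mimic made little difference. DHX38, of the step between both splicing reactions, stood at 116, 124, 95.9 and 100 CPM. The splicing members higher in both DDX21 KO libraries were DDX23, DHX15 and DDX41, the last at 70.7, 67.9, 81.8 and 76.5 CPM. DDX17, unlike its paralog DDX5, had ratios of 0.19 (0.16 to 0.23) and 0.14 (0.11 to 0.18).

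DHX40 was the lowest member with miR-34a. Between the lines its ratio was -0.61 (-0.68 to -0.55) without the mimic and -0.97 (-1.04 to -0.89) with it, a 1.95-fold lower level. DDX6 had ratios of -0.34 (-0.39 to -0.29) and -0.46 (-0.51 to -0.41). DHX29 was at -0.29 (-0.37 to -0.20) and -0.39 (-0.48 to -0.30). DDX3X was close to level by counts, at -0.07 (-0.09 to -0.04) and -0.05 (-0.08 to -0.03), but on the deposited FPKM its non-treated ratio was 0.38, with the other sign. DDX52 was at -0.19 (-0.29 to -0.08) in non-treated cells and at -0.58 (-0.68 to -0.49) with miR-34a, where transfected H1299 held the highest of its 4 levels. Ratios that differed in sign were those of DDX11, at -0.20 (-0.28 to -0.11) and 0.56 (0.46 to 0.66), and DDX27, at -0.09 (-0.17 to -0.01) and 0.11 (0.02 to 0.20). DDX39A was at 0.06 (0.00 to 0.11) and 0.48 (0.42 to 0.54), and DHX34 at 0.05 (-0.11 to 0.21) and 0.54 (0.38 to 0.70).

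Where a helicase gene lies on its chromosome went with its ratio between the lines. For each member the median ratio of the other protein-coding genes within 5 Mb of its midpoint was taken, over 12 to 191 neighbours, leaving out all members. Across the 45 members, Pearson's r between a member's own ratio and that of its neighbours was 0.70 in non-treated cells and 0.78 with miR-34a, and Spearman's rho was 0.69 and 0.72. Over all protein-coding genes r was 0.33 in both comparisons and rho 0.47 and 0.48. For miR-34a against non-treated, the same r over members was -0.39 in H1299 and -0.07 in DDX21 KO, against 0.07 and 0.08 over protein-coding genes. These are descriptions: a member and its neighbours come from the same libraries, and close members share neighbours.

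Some of the low members sat in a few stretches. DDX52, DHX8, DHX40, DDX42 and DDX5 lie on chromosome 17 between 37.6 and 64.5 Mb, where the neighbours' medians ran from -0.65 to -0.46 in non-treated cells and from -0.67 to -0.44 with miR-34a. The helicases themselves ran from -0.67 to -0.19 and from -0.97 to -0.47. DDX54, DDX55, DHX37 and DDX51 lie on chromosome 12 between 113 and 132 Mb. Their neighbours ran from -0.48 to -0.30 in non-treated cells and the helicases from -0.54 to -0.41. With miR-34a these neighbours ran from -0.38 to -0.26 and the helicases from -0.53 to 0.03, the highest being DHX37. DDX20 on chromosome 1 and DDX31 on chromosome 9 also had low neighbours in non-treated cells, at -0.43 and -0.47.

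In non-treated cells 11 of 45 members (24.4%) had neighbours at or below -0.25, against 15.5% of protein-coding genes. All 11 had an interval below 0, with a median ratio of -0.47; of the protein-coding genes in such places 77.1% did. Among the other 34 members 18 had an interval below 0 (52.9%), where 29.4% of protein-coding genes did. Above 0 were 9 of these 34 (26.5%, protein-coding genes 40.5%). With miR-34a, 16 members (35.6%) had such neighbours, against 17.0% of protein-coding genes. Of these 16, 12 had an interval below 0 (75.0%, protein-coding genes 73.2%). Among the other 29 members 10 were below (34.5%, protein-coding genes 29.7%) and 13 above (44.8%, protein-coding genes 41.1%). Taking the neighbours' median away narrowed the SD across members from 0.30 to 0.22 and from 0.34 to 0.22. Across protein-coding genes the SD went from 0.65 to 0.62 and from 0.67 to 0.63. DDX1 and DHX29 lay at least 0.2 below their neighbours in both comparisons and 0 members lay that far above in both, against 13.8% and 15.3% of protein-coding genes. DDX1 had ratios of -0.29 (-0.35 to -0.24) and -0.11 (-0.16 to -0.05) beside neighbours at 0.21 and 0.22. DDX46, with a non-treated ratio of -0.49 (-0.56 to -0.43), had neighbours at -0.05. With miR-34a DDX46 was at 0.02 (-0.06 to 0.09), above its neighbours at -0.14. Gene copy number was not measured, and differences between the lines due to the loss of DDX21, to its selection and to the libraries cannot be told apart.

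**Figure D3:**
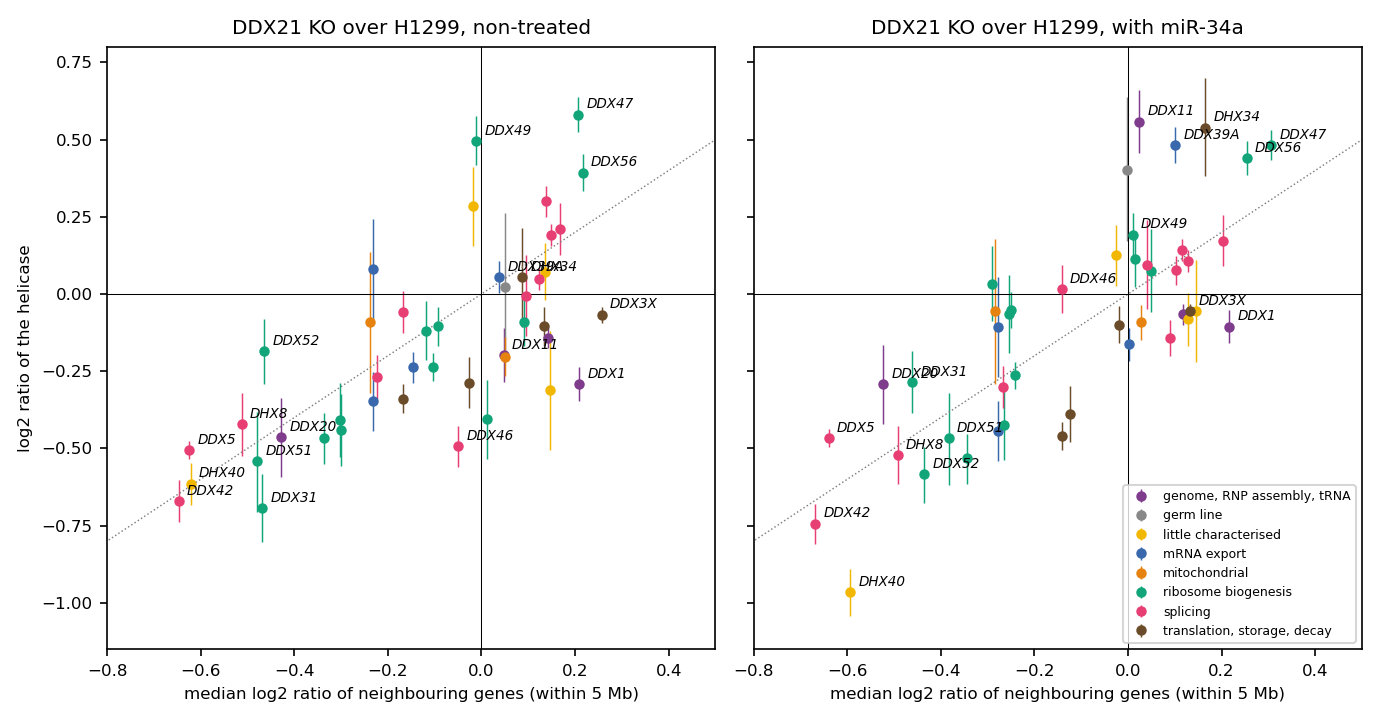
Log2 ratio of DDX21 KO over H1299 for each of 45 helicases (y axis, bars are 95% counting intervals) against the median log2 ratio of protein-coding neighbours within 5 Mb (x axis), in non-treated cells (left) and with miR-34a (right); the dotted line marks equality and colours mark roles. Members on chromosome 17 such as DDX42, DDX5 and DHX40 lie at the lower left of both panels, and r was 0.70 and 0.78.

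The last comparison asks whether the response to miR-34a itself differed between the lines. Taken as the ratio in DDX21 KO minus that in H1299, the difference passed 2-fold for 0 of 45 members (background 1.52% higher and 1.75% lower) and 1.5-fold for 1, DDX11 (background 4.70%). Its median was 0.04, against -0.02 for protein-coding genes, and its interval was above 0 for 15 members (33.3%, background 23.3%) and below for 7 (15.6%, background 26.6%). Ordered by the bound of the interval nearest to 0, the positive differences were led by DDX11 at 0.76 (0.62 to 0.89), DDX46 at 0.51 (0.41 to 0.61) and DDX39A at 0.43 (0.35 to 0.51), all genes that were low with miR-34a in H1299 and less so in DDX21 KO. DHX34 at 0.49 (0.26 to 0.71), DHX33 at 0.48 and DHX37 at 0.44 had larger differences than DDX39A but wider intervals. The negative ones were led by DDX52 at -0.40 (-0.54 to -0.26), DHX40 at -0.35 (-0.45 to -0.25) and DDX49 at -0.30 (-0.41 to -0.20). For DDX10, the member with the lowest ratios, the difference was 0.05 (-0.10 to 0.21). Any of these differences can rest on 1 library, as for DDX11, where transfected H1299 stands alone.

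The estimated makeup of transcripts differed between libraries for many helicases, as it did for other genes. A transcript's share of its gene's reads moved by at least 20 percentage points in at least 1 of the 4 comparisons for 24 of the 45 members (53.3%), all of which had at least 200 reads per library, and for 47.3% of protein-coding genes with that many reads. Among genes with more than 1 listed transcript the shares were 24 of 36 members (66.7%) and 55.0% of protein-coding genes. In DDX3X the model transcript XM_017029313 took 80.0%, 69.8%, 2.8% and 80.3% of reads, while NM_001356 took 0.8%, 4.8%, 67.1% and 6.7%. Non-treated DDX21 KO thus stood apart from the other 3 libraries for DDX3X. In DHX30 it was non-treated H1299 that differed: XM_011533490 took 80.1%, 13.2%, 18.6% and 17.6%. In DHX29, NM_019030 took 6.3%, 57.9%, 78.6% and 83.7%, and the noncoding XR_001742128 took 69.0% in non-treated H1299 and at most 0.4% elsewhere.

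A share that separated both DDX21 KO from both H1299 libraries by 20 points was found in DHX29 and DHX35 (4.44% of members, background 4.17%, or 4.86% with more than 1 listed transcript). For DHX35, NM_021931 took 69.7%, 64.9%, 44.6% and 32.9%. A share that separated both transfected from both non-treated libraries was found in DDX42 and DHX34 (4.44%, background 3.85%, or 4.49% with more than 1 listed transcript). In DDX42, NM_203499 took 25.8%, 0.9%, 43.4% and 0.2%, and in DHX34 the noncoding XR_243974 took 0.0%, 41.0%, 0.2% and 58.6%. The reads of DDX17 fell on 2 listed transcripts, of which NM_001098504 took 32.0%, 28.3%, 31.3% and 49.1%. DDX5 kept NM_004396 as its main transcript, with 85.1%, 87.3%, 69.4% and 91.4%. Shares rest on the authors' assignment of reads to near-identical transcripts, whose error was not measured.

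**Figure D4:**
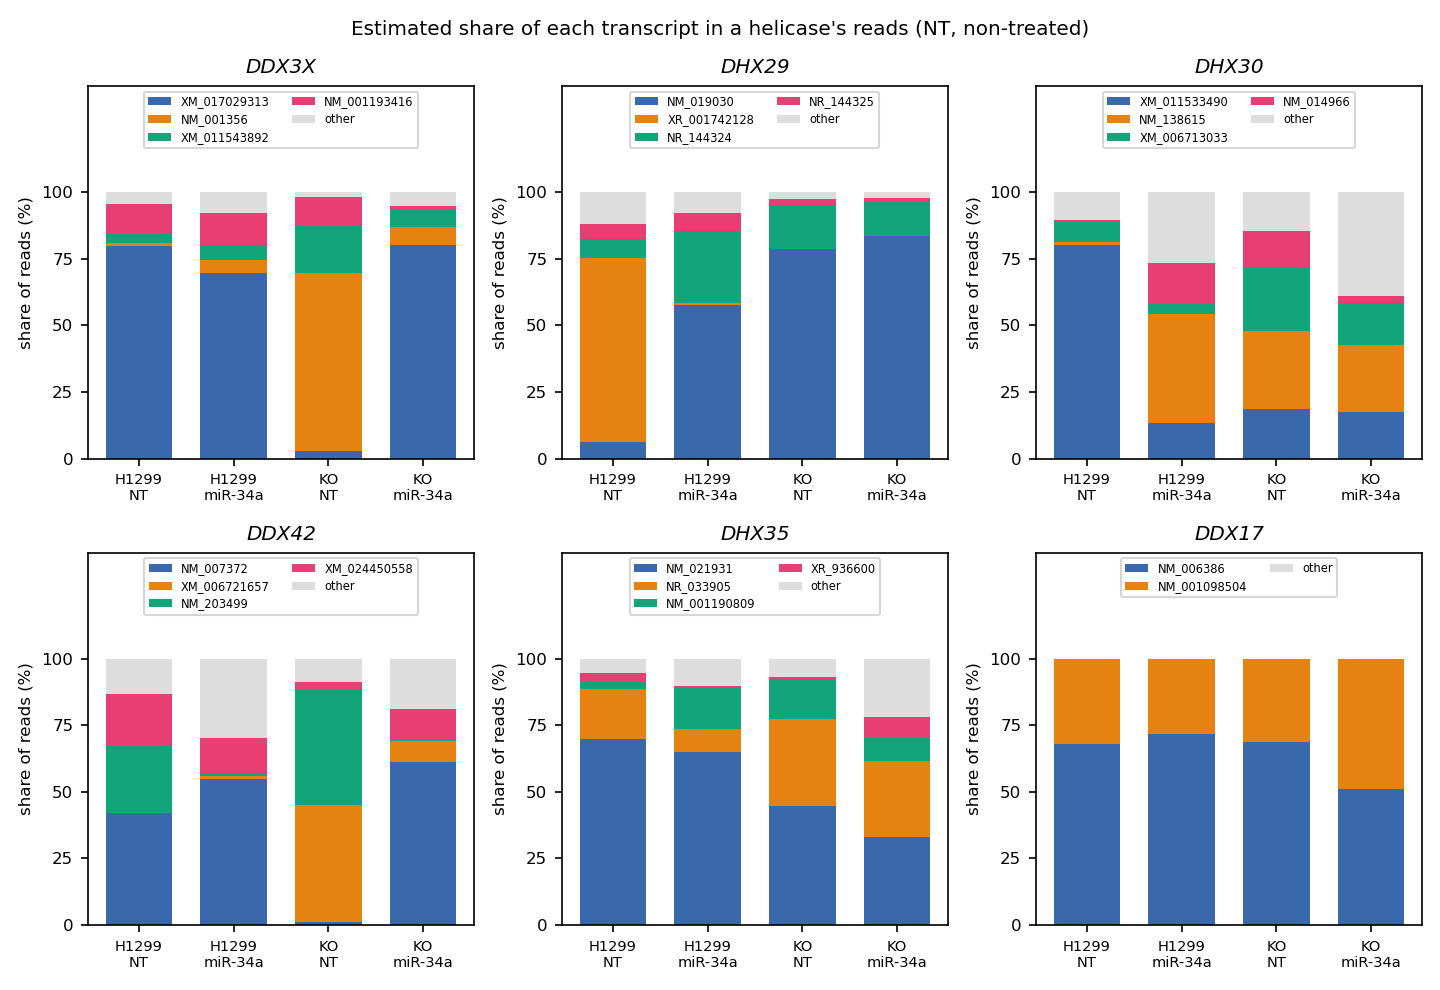
Share of each helicase's reads (percent) assigned to its leading transcripts in the 4 libraries, for 6 members; NT is non-treated and grey is all other transcripts. A single library departs from the other 3 in DDX3X (non-treated DDX21 KO) and DHX30 (non-treated H1299).

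Partners of the helicases were read from lists of complexes. Among 19 genes of the deadenylation and decapping complexes around DDX6, 1 was higher by 2-fold in each line with miR-34a. Background was 3.62% in H1299 and 1.53% in DDX21 KO. Of these 19 genes 0 were lower (background 3.89% and 1.61%). The higher gene was DCP2, the decapping enzyme, at 171, 384, 137 and 338 CPM, with ratios of 1.17 (1.13 to 1.21) and 1.30 (1.25 to 1.36). The lowest were CNOT6, a deadenylase, at -0.80 and -0.47, and EDC3, a decapping enhancer, at -0.70 and -0.54. In the SMN complex of DDX20, 1 of 9 genes was lower by 2-fold in H1299 (background 3.89%). It was STRAP, at 443, 201, 450 and 247 CPM, with ratios of -1.14 (-1.18 to -1.10) and -0.86 (-0.90 to -0.82). Among 16 measured other RNA helicases, 1 was lower by 2-fold in both lines (background 3.89% in H1299 and 1.61% in DDX21 KO). MOV10, which travels with Argonaute proteins, stood at 49.3, 22.6, 41.1 and 19.0 CPM, with ratios of -1.12 and -1.11 (-1.26 to -0.97).

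Between the lines, 0 genes of these lists passed 2-fold. Background was 3.83% higher and 2.28% lower in non-treated cells, and 3.93% and 2.78% with miR-34a. The other RNA helicases had an interval below 0 for 11 of 16 genes in non-treated cells (background 36.8%) and 12 of 16 with miR-34a (background 37.1%), with medians of -0.21 and -0.23. HELZ stood at 96.5, 94.9, 52.4 and 58.4 CPM, with ratios of -0.88 (-0.97 to -0.79) and -0.70 (-0.78 to -0.62). EIF4A3, the helicase of the exon junction complex, stood at 113, 135, 66.6 and 74.5 CPM, with ratios of -0.76 (-0.84 to -0.68) and -0.85 (-0.92 to -0.78). By contrast EIF4A1, the abundant initiation helicase, stood at 1525, 1441, 1670 and 1600 CPM. Of 20 G-patch proteins, a group of which several members switch on DEAH helicases, 14 were below 0 and 1 above in non-treated cells (background 36.8% and 35.2%), and 9 and 6 with miR-34a (background 37.1% and 35.5%), with medians of -0.20 and -0.08. GPATCH8 was lowest at -0.59 (-0.72 to -0.47) without miR-34a, and GPKOW, a partner of DHX16, was highest at 0.40. In the export list of 15 genes, NUP214, which docks DDX19 at the pore, was at -0.75 (-0.87 to -0.63) in non-treated cells and -0.16 (-0.30 to -0.02) with miR-34a, while THOC6 of TREX was at 0.69 (0.53 to 0.86) and 0.75 (0.55 to 0.95). The 6 genes of the tRNA ligase list of DDX1 stayed between -0.47 (C2orf49) and 0.35 (FAM98B), both with miR-34a.

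The authors' deposited table of their own comparisons lists 908 entries, each with at least 2-fold and a raw p-value below 0.05 in at least 1 comparison. It holds 0 of the 49 members. With 908 entries beside 46427 genes in the deposited gene table, few of any 49 genes would be listed.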

How the data were processed

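Per the labels' protocols, total RNA from miRNeasy columns was freed of rRNA before stranded TruSeq library preparation. Alignment tools were TopHat2 2.0.9 and Bowtie2 2.0.6 with GRCh38, per the submitters' processing notes. The tool that counted reads and its strand setting were not given in the sources used here. DHX32, DDX27, DDX31, DDX42, DDX5, DHX16 and some other members overlap a protein-coding gene on the opposite strand. Reads of such pairs could have been mixed if the counting ignored strand. Estimated counts per gene and per transcript were deposited as whole numbers beside FPKM per gene, per the file headers. For each pair of libraries the authors' deposited table holds a signed fold and raw and adjusted p-values, and was used only for the rows it lists. All 4 libraries were used, and 0 columns of samples were left unmapped.

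Counts were scaled with TMM in edgeR 4.0.16 (R 4.3.3). A gene entered a comparison with at least 50 reads in at least 1 library compared. The log2 ratio used a prior count of 2, with a 95% interval from how the reads split between both libraries (exact Clopper-Pearson), or from Poisson variance for the difference of ratios. A call needed 2-fold and an interval without 0. Ratios were computed on all genes with Python 3.11.15, and the code was tried on simulated counts. Those counts held counting error only, as the interval assumes, and planted changes larger than any measured member showed. The trial therefore says nothing about replicate spread or small ratios. Background shares are over protein-coding genes. A count of 0 was bounded by 3 counts. DESeq2 1.42.0 gave alternative size factors. Other settings were library totals alone, a prior count of 0.5, count minimums of 1, 10 and 200, a fold of 1.5 and the deposited FPKM with a pseudocount of 0.1.

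Members, role lists and partner lists were chosen with earlier results of these data known. Values in every library were given for the 3 members per direction and comparison with the interval bound farthest from 0, the 6 highest FPKM in non-treated H1299, and the ends of each role and partner list, the latter by ratio. The comparison with chromosomal neighbours, its window of 5 Mb and its limit of -0.25 were chosen after the data had been seen. Gene positions came from RefSeq on GRCh38.p14 and 3′ UTRs from GENCODE 29. Protein sequences were not analysed here.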

Additional observations from a re-analysis of the deposited data

Results flagged for a closer look

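In 4 members the sign of a contrast differed between its 2 settings, with each counting interval on its own side of 0. These have 1 library per group, so the difference was not tested against replicates; the interval of the difference covers counting error only.

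With miR-34a against non-treated, DDX6 was at 0.05 in H1299 and -0.07 in DDX21 KO, a difference of -0.12 (-0.19 to -0.05). DHX34 was at -0.25 and 0.23, a difference of 0.49 (0.26 to 0.71), from 558 to 809 counts per library. With DDX21 KO against H1299, DDX11 was at -0.20 in non-treated cells and 0.56 with miR-34a, a difference of 0.76 (0.62 to 0.89), and it has a near-identical pseudogene. DDX27 was at -0.09 and 0.11, a difference of 0.20 (0.08 to 0.32). Of protein-coding genes 3.95% and 6.20% had intervals on opposite sides in the same contrasts, and 4.44% of the 45 members did in each.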

How the results depend on the processing

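The counts of members beyond 2-fold were 0 in every comparison with DESeq2 size factors, library totals alone, a prior count of 0.5, a count minimum of 200 or the deposited FPKM. With a count minimum of 10 or 1, 1 member was lower with miR-34a in H1299, DDX25, at 46 and 16 counts. At a fold of 1.5, 2 members were higher and 4 lower with miR-34a in H1299, 2 lower with miR-34a in DDX21 KO, 3 lower in DDX21 KO against H1299 non-treated, 2 lower with miR-34a, and 1 higher in the difference; the lower limit is the cause. Medians of the members moved by less than the typical counting error of a single member. The one for miR-34a in DDX21 KO, close to 0, changed sign from -0.01 to 0.01 with DESeq2 size factors, library totals alone and the deposited FPKM, and the one in H1299 went from -0.02 to 0.00 with library totals alone. The deposited FPKM put 14 of 225 member ratios outside their counting interval and gave 11 the other sign, most of all DDX3X, whose difference of ratios went from 0.01 to -0.41; the cause was not tested. DESeq2 size factors and library totals alone turned 8 and 9 signs, with shifts of at most 0.03. The r of members with their neighbours was 0.68 and 0.78 between the lines within 2 Mb (44 members), and 0.67 and 0.78 within 10 Mb. For miR-34a in H1299 it went from -0.39 to -0.25 and -0.29, and the cause was not tested; these windows were chosen after seeing the data. No paired analysis was possible because each comparison sets 1 library against 1, so that its groups share fewer than 2 replicate numbers, and for the same reason no library could be left out. A fit of 1 miR-34a effect over both lines, with the line as a block, was not run. Depth limited DDX25, DDX28 and DDX43, the last with an interval of -0.45 to 0.02 for miR-34a in H1299.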
